A study of Mus musculus with 12 samples.

Results

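The genes described here are 8 genes of fat cells, Adipoq, Retn, Cfd, Lep, Plin1, Cidec, Pparg and Fabp4, chosen by symbol among the 28116 gene symbols measured in regenerating mouse muscle. All 8 were in the table. The muscle was the tibialis anterior of 4-month-old C57BL/10ScSn-Dmdmdx/J (mdx) mice, which lack functional dystrophin and are used as a model of Duchenne muscular dystrophy. In every group the muscle had received cardiotoxin, a component of cobra venom that kills muscle fibres and starts regeneration. Along with the toxin came either anti-miR-106b, which blocks the microRNA miR-106b, or an inhibitor of scrambled sequence as the control. The 4 groups, each of 3 animals, were anti-miR-106b collected at day 7 after injection, the scrambled control of day 7, anti-miR-106b collected at day 3, and the scrambled control of day 3. All groups carry the dystrophin mutation and the toxin injury, so neither healthy nor uninjured muscle was part of the comparison. The question put to these genes was how much fat-cell RNA the muscles held in each group, and whether single libraries carried fat taken with the muscle.

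White adipocytes store triglyceride in a large lipid droplet and release hormones. In skeletal muscle they lie between fibres and bundles and in the connective tissue around the muscle, and after injury they can arise from fibro-adipogenic progenitors, mesenchymal cells of the muscle interstitium. The nuclear receptor encoded by Pparg, together with the C/EBP factors, switches on the adipocyte programme, which includes the droplet proteins perilipin 1 and CIDEC, the fatty acid carrier FABP4 and the secreted proteins adiponectin, resistin, adipsin and leptin. Pparg and Fabp4 are also used outside fat: Pparg in macrophages, and Fabp4 in the endothelium of capillaries and in macrophages.

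The inhibitor is aimed at miR-106b, whose mature sequence is shown with those of the other mouse microRNAs that share its seed, the stretch that pairs with target transcripts. The sequences are from RefSeq (GRCm38.p6), and the capitals mark the seed, bases 2 to 8, which is the same in all 6.
mmu-miR-106b-5p: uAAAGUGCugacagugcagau
mmu-miR-93-5p: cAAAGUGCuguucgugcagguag
mmu-miR-17-5p: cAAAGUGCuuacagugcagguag
mmu-miR-20a-5p: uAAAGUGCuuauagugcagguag
mmu-miR-20b-5p: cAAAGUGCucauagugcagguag
mmu-miR-106a-5p: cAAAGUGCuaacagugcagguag

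The 3′ UTRs of the 8 genes were searched for the matching letters. The 8-base match GCACTTTA was in the longest annotated 3′ UTR of 743 of 21824 genes (3.4%) and in none of the 8. The 7-base match CACTTTA, without pairing at the last seed base, was in 11.7% of all genes and in Lep only. The 6-base core CACTTT was in 37.0% of all genes and in 4 of the 8, which are shown with 10 bases on each side and the core in capitals.
Adipoq: acagtcgacaCACTTTcagcttagtt
Retn: ctctcaagttCACTTTtcacctctgt
Plin1: ttttcacagcCACTTTtccatgtcat
Lep: gaaagcaataCACTTTaagactgagc
These matches are a description of letters, and no test was made of whether the inhibitor acts through them.

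Promoters were looked up because several of the 8 genes moved together (see the values of single libraries further on). RefSeq promoters, 250 bases before to 50 after a start, were found for 7 of the 8 genes, 10 promoters in all. The C/EBP motif TTNNGCAA, searched on both strands, occurred in 4 of these promoters, of Plin1, Lep, Cidec and Pparg, and in 10.8% of all 32851 promoters. Matches of Cidec and Pparg were only in promoter 2 of Cidec and promoter 3 of Pparg. The promoters of Adipoq, Retn and Cfd had no match. A part of the motif in the shared movement was not tested. The direct repeat bound by PPAR with RXR, AGGNCA given 2 times with 1 base between, also on both strands, occurred in none of the 10 and in 0.381% of all promoters. The promoters of Plin1 and Lep are shown with the C/EBP letters in capitals. Plin1 (chr7:79732727-79733026, minus strand) has 2 matches, which begin 187 and 58 bases before the start, and Lep (chr6:29059971-29060270, plus strand) has 1, which reads as a match on either strand and begins 55 bases before it.
Plin1: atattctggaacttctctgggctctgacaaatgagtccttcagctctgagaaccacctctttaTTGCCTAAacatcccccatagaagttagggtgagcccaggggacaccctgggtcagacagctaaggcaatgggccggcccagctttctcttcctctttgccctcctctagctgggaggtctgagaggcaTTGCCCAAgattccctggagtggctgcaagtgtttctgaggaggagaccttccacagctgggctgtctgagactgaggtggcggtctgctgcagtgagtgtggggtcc
Lep: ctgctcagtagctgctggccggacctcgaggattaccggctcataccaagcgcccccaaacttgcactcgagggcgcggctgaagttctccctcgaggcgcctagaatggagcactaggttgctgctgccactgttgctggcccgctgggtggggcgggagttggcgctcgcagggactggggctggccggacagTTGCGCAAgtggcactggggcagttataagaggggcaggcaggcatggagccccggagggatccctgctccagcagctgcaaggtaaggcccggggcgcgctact

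Levels are given in CPM, the reads of a gene relative to the library size that the authors had scaled. Libraries held 28857739 to 42825246 reads, so that 1 read was worth 0.0213 to 0.0356 CPM. The tissue was muscle by its markers: Ckm, muscle creatine kinase, was at 14230 to 16650 CPM in the anti-miR-106b and 15290 to 18130 CPM in the scrambled libraries of day 7, and at 4319 to 5076 CPM and 7205 to 9532 CPM in those of day 3. Per kilobase of exon and over all 12 libraries, the 8 genes spanned a wide range in which Fabp4 was far above the rest. Fabp4 averaged 241.9 CPM per kilobase in anti-miR-106b day 7, where Cfd averaged 50.2, Adipoq 6.63, Cidec 1.94, Pparg 1.21, Retn 1.13, Plin1 0.787 and Lep 0.276. Set against all 14063 genes that reached 1 CPM in at least 3 libraries, by mean level, Fabp4 lay at the 95th percentile, Cfd at 71.1 and Adipoq at 31.2. Pparg, Plin1, Cidec and Retn lay between 10.8 and 22.8. Lep did not reach that level and was kept out of the tests, so 7 of the 8 genes were tested. Since this is bulk tissue, fewer adipocytes and less RNA of these genes per adipocyte cannot be told apart.

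**Figure D1:**
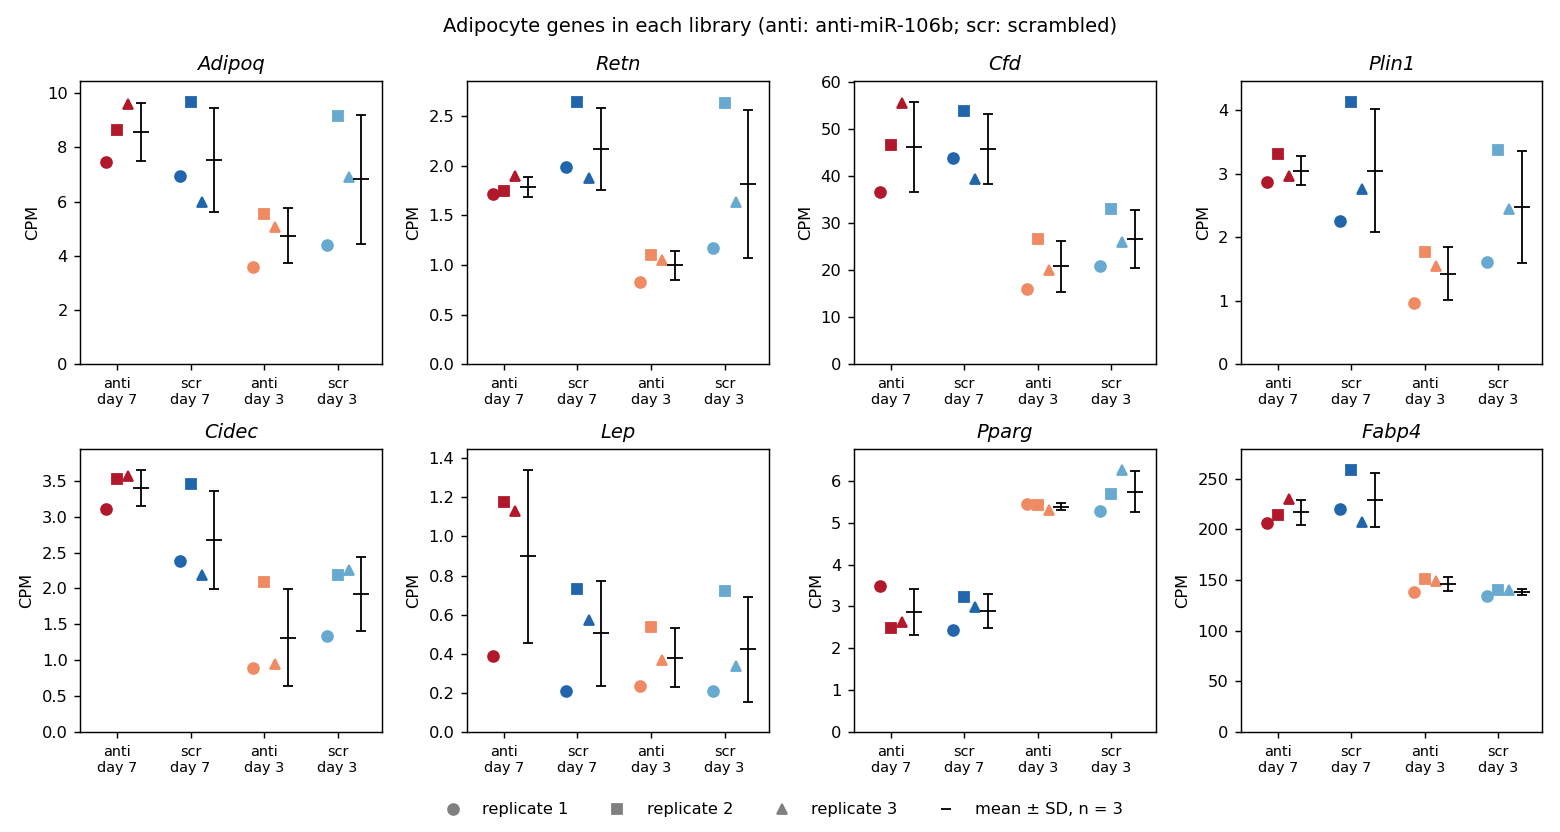
Level in CPM (linear axes from 0) of each of the 8 genes in each of the 12 libraries, by group; points are libraries, with the marker shape giving the replicate number, and the bar is the mean ± SD of 3. Cfd and Fabp4 were higher and Pparg lower in all day 7 libraries than in all day 3 libraries of the same inhibitor, on the authors' scaling (with total reads as library size, Fabp4 with anti-miR-106b was at -0.06 log2).

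The secreted proteins come first. Adipoq encodes adiponectin, a hormone that raises insulin sensitivity and is made nearly only by adipocytes (chromosome 16, 23146536 to 23158028, plus strand, GRCm38). Adipoq was at 7.47, 8.65 and 9.58 CPM in the anti-miR-106b and at 6.93, 9.67 and 5.97 CPM in the scrambled libraries of day 7, with the groups overlapping. At day 3 Adipoq was at 3.604, 5.55 and 5.06 CPM with anti-miR-106b and at 4.39, 9.15 and 6.91 CPM with the scrambled inhibitor. All anti-miR-106b libraries of day 7 were above all of day 3, while scrambled replicate 2 of day 3 was nearly as high as the highest library of day 7.

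Retn encodes resistin, a small hormone that mouse adipocytes secrete (chromosome 8, 3655770 to 3660110, plus strand). Retn was at 1.71, 1.74 and 1.90 CPM in the anti-miR-106b and at 1.99, 2.64 and 1.87 CPM in the scrambled libraries of day 7. At day 3 it was at 0.832, 1.101 and 1.05 CPM with anti-miR-106b and at 1.17, 2.64 and 1.64 CPM with the scrambled inhibitor. The day 3 groups did not overlap, although scrambled replicate 1 lay close above the anti-miR-106b libraries. These levels rest on 39 to 95 reads.

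Cfd encodes adipsin (complement factor D), a protease of the alternative complement pathway that fat secretes in bulk (chromosome 10, 79890853 to 79892655, plus strand). Cfd was at 36.6, 46.6 and 55.6 CPM in the anti-miR-106b and at 43.9, 53.9 and 39.3 CPM in the scrambled libraries of day 7. It was at 15.9, 26.6 and 20.04 CPM with anti-miR-106b and at 20.9, 33.1 and 25.9 CPM with the scrambled inhibitor at day 3. Every day 7 library was above every day 3 library in these CPM, and within a day the inhibitor groups overlapped.

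Lep encodes leptin, the hormone that reports fat stores to the brain (chromosome 6, 29060220 to 29073877, plus strand). Lep was at 0.388, 1.17 and 1.13 CPM in the anti-miR-106b and at 0.211, 0.731 and 0.572 CPM in the scrambled libraries of day 7. It was at 0.235, 0.539 and 0.369 CPM with anti-miR-106b and at 0.209, 0.721 and 0.338 CPM with the scrambled inhibitor at day 3. Each of these values stands for 7 to 34 reads, replicate 1 was the lowest in all 4 groups, and the groups overlapped throughout. When genes down to 0.5 CPM in 3 libraries were admitted, none of the comparisons of Lep passed in limma, and the largest difference, day 7 against day 3 with anti-miR-106b, was 1.14 ± 0.57 log2 (SE, adjusted p = 0.0839, and 0.114 with no filter on level).

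The droplet proteins were lower in CPM than adiponectin. Plin1 encodes perilipin 1, which coats the adipocyte droplet and controls lipolysis (chromosome 7, 79720218 to 79732903, minus strand). Plin1 was at 2.88, 3.31 and 2.96 CPM in the anti-miR-106b and at 2.26, 4.13 and 2.76 CPM in the scrambled libraries of day 7. It was at 0.960, 1.77 and 1.55 CPM with anti-miR-106b and at 1.62, 3.38 and 2.45 CPM with the scrambled inhibitor at day 3. The day 3 groups overlapped by 1 library of each, the highest with anti-miR-106b and the lowest with the scrambled inhibitor.

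Cidec promotes the fusion of small droplets into a large one (chromosome 6, 113424634 to 113435760, minus strand). Cidec was at 3.103, 3.52 and 3.56 CPM in the anti-miR-106b and at 2.38, 3.46 and 2.19 CPM in the scrambled libraries of day 7. It was at 0.896, 2.09 and 0.948 CPM with anti-miR-106b and at 1.33, 2.19 and 2.26 CPM with the scrambled inhibitor at day 3. The anti-miR-106b libraries of day 7 were all above those of day 3. Day 7 and day 3 overlapped with the scrambled inhibitor, as did both inhibitors within each day.

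The last pair followed other courses. Pparg encodes the nuclear receptor that drives fat-cell differentiation (chromosome 6, 115360951 to 115490399, plus strand). The annotated antisense gene Gm44079 overlaps it and had at most 2 reads in any library. Pparg was at 3.49, 2.49 and 2.63 CPM in the anti-miR-106b and at 2.44, 3.23 and 2.99 CPM in the scrambled libraries of day 7, against 5.44, 5.41 and 5.29 CPM and 5.27, 5.69 and 6.26 CPM in those of day 3. Every day 7 library was below every day 3 library, the opposite order from Cfd. Fabp4 encodes the fatty acid carrier of adipocytes and capillary endothelium (chromosome 3, 10204088 to 10208576, minus strand). Fabp4 was at 206, 214 and 230.2 CPM in the anti-miR-106b and at 220.2, 259 and 207 CPM in the scrambled libraries of day 7. It was at 138, 151 and 149 CPM with anti-miR-106b and at 135, 139.8 and 140.2 CPM with the scrambled inhibitor at day 3. All day 7 libraries were above all day 3 libraries, and replicates lay within 1.25-fold of each other in every group.

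Whether single libraries carried more fat was read from Adipoq, Retn, Cfd, Plin1, Lep and Cidec, summed. Most of this sum was Cfd. On average Cfd made up 46.3 of 64.0 CPM in anti-miR-106b and 45.7 of 61.7 CPM in scrambled libraries of day 7. At day 3 it made up 20.9 of 29.7 CPM and 26.7 of 40.1 CPM. The sum of the 6 genes was 52.1, 65.0 and 74.7 CPM in the anti-miR-106b and 57.7, 74.6 and 52.7 CPM in the scrambled libraries of day 7, in the order of replicates 1 to 3. It was 22.5, 37.7 and 29.0 CPM with anti-miR-106b and 29.6, 51.2 and 39.5 CPM with the scrambled inhibitor at day 3. No library stood apart by an order of magnitude: the highest exceeded the lowest of its group 1.43-fold, 1.42-fold, 1.68-fold and 1.73-fold, in the same order of groups. Within a group the genes often had the same library highest or lowest. This was not tested, and the genes share the scaling of each library. Replicate 2 was the highest for all 6 genes in the scrambled group of day 7 and the anti-miR-106b group of day 3, and for 5 of 6 in the scrambled group of day 3. Replicate 1 was the lowest for all 6 genes in both anti-miR-106b groups and in the scrambled group of day 3. Averaged over the 6 genes, libraries deviated from their group mean by -0.55 log2 (scrambled day 3 replicate 1) to 0.52 log2 (scrambled day 3 replicate 2). Pparg and Fabp4 deviated by at most 0.30 and 0.18 log2.

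**Figure D2:**
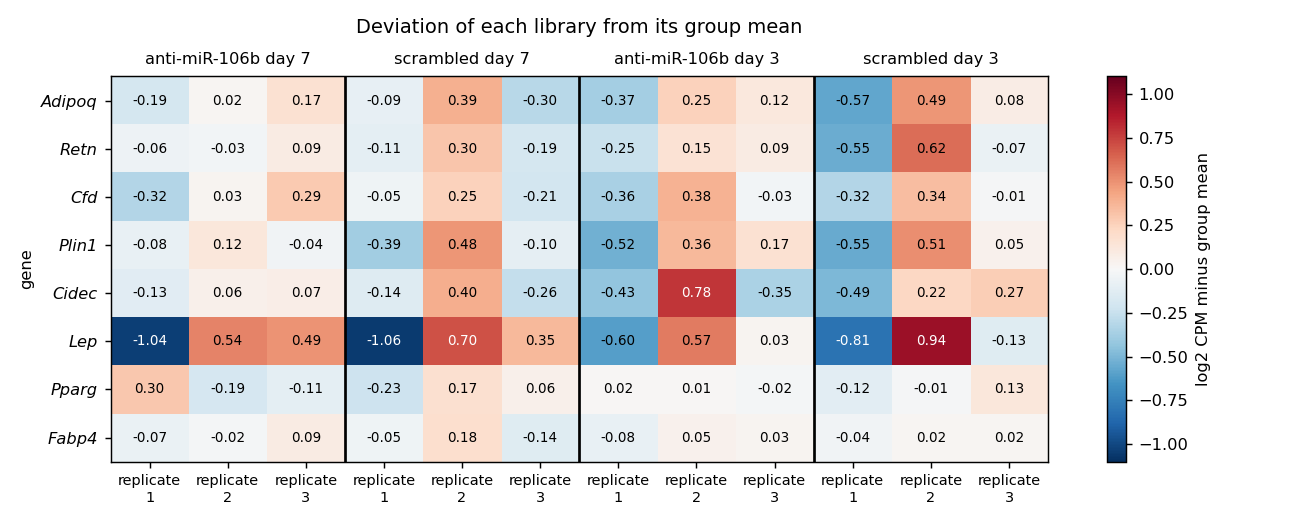
Deviation of each library from its group mean in log2 CPM (colour and printed value) for the 8 genes (rows) in the 12 libraries (columns, by group). The columns of scrambled day 3 replicate 1 and replicate 2 have one sign over the 6 upper genes, low in replicate 1 and high in replicate 2, while Pparg and Fabp4 stay near 0 there.

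Ratios between the genes varied from narrow to wide within a group. The ratio of Cfd to Adipoq in CPM was 4.90 to 5.80 in anti-miR-106b and 5.58 to 6.59 in scrambled libraries of day 7, and 3.96 to 4.80 and 3.62 to 4.77 in those of day 3. Its mean was thus higher at day 7 than at day 3 with both inhibitors (5.36 against 4.40 with anti-miR-106b, 6.17 against 4.05 with the scrambled inhibitor). The ratio of Plin1 to Adipoq was 0.355 to 0.370 in the scrambled libraries of day 3, although Adipoq itself differed 2.09-fold among them. The ratio of Cidec to Adipoq, in contrast, was 0.188 to 0.377 in the anti-miR-106b libraries of day 3, and that of Lep to Adipoq, which rests on few reads, was 0.0304 to 0.0957 in the scrambled libraries of day 7. The ratio of Fabp4 to Adipoq was 15.3 to 30.7 in the scrambled libraries of day 3, where Fabp4 varied far less than Adipoq. After removal of the group means, the 10 pairs among Adipoq, Retn, Cfd, Plin1 and Cidec had Pearson correlations of 0.65 to 0.948 over the 12 libraries, and Lep had 0.612 to 0.815 with those 5. These libraries share scaling by library, which can move genes together. Fabp4 and Adipoq had a correlation of 0.75 within groups, so Fabp4 moved in the same direction by smaller amounts. The mean of Adipoq, Retn, Cfd, Plin1 and Cidec had within-group correlations of 0.717 with Fabp4 and 0.161 with Pparg.

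Markers of other tissues were set beside these sums, and their part in the deviations was not tested. The sum of 7 red blood cell genes, of which 5 reached the level for testing, was 139.8, 94.0 and 98.8 CPM in anti-miR-106b and 81.7, 172 and 71.0 CPM in scrambled libraries of day 7. The blood sum was 163, 166 and 147 CPM with anti-miR-106b and 58.0, 154 and 113 CPM with the scrambled inhibitor at day 3. The scrambled libraries highest in fat genes, replicate 2 of both days, were thus also the highest of their groups in haemoglobin transcripts, and scrambled day 3 replicate 1 was the lowest in both. In anti-miR-106b day 3, replicate 2 was the highest in both as well. In anti-miR-106b day 7, replicate 1 was lowest in fat genes but highest in blood genes, while replicate 3 was above replicate 2 in both. Skin genes were low, with a sum of 3.03 to 7.03 CPM over 6 of 9 listed genes, and Krt5, a keratin of the basal epidermis, had at most 2 reads in any library. Ucp1, which defines brown fat, had at most 3 reads. Sums of 8 tendon genes were 611 to 736, 524 to 625, 767 to 843 and 598 to 768 CPM in anti-miR-106b day 7, scrambled day 7, anti-miR-106b day 3 and scrambled day 3. Sums of 9 Schwann cell genes were 48.9 to 59.8, 66.8 to 71.0, 82.3 to 87.7 and 85.0 to 97.7 CPM in the same order.

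Other genes that followed the mean of Adipoq, Retn, Cfd, Plin1 and Cidec were sought over all tested genes. With group means removed, the 10 with the highest correlation over 12 libraries were Zfp786 (0.934), Mpst, Gm10762, Cfap70, Fam131a, Mir133a-1hg, Lrrc30, Mylk4, Gpr180 and Faap100 (0.874). Mpst encodes a sulfurtransferase, Mylk4 a myosin light chain kinase family member, and Mir133a-1hg is the host transcript of a muscle microRNA. Without removal of group means, they were Cfap70 (0.956), Nog, Galnt11, Lrtm2, Parm1, Gm15510, Gm29595, Unc5a, Gm10762 and Ufsp1 (0.922), of which Nog encodes noggin, an inhibitor of BMP signalling. None of these genes is in the adipocyte lists. Of all 14063 genes, 234 (1.66%) had a within-group correlation above 0.7, and the median was 0.002. The median was 0.691 for the 5 kept red blood cell genes, 0.487 for 15 genes of progenitors and fibroblasts, 0.461 for 12 of mature fibres and 0.297 for 20 other adipocyte genes. It was -0.08 for 14 macrophage genes and -0.09 for 15 endothelial genes. The likeness is thus not confined to genes of adipocytes.

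**Figure D3:**
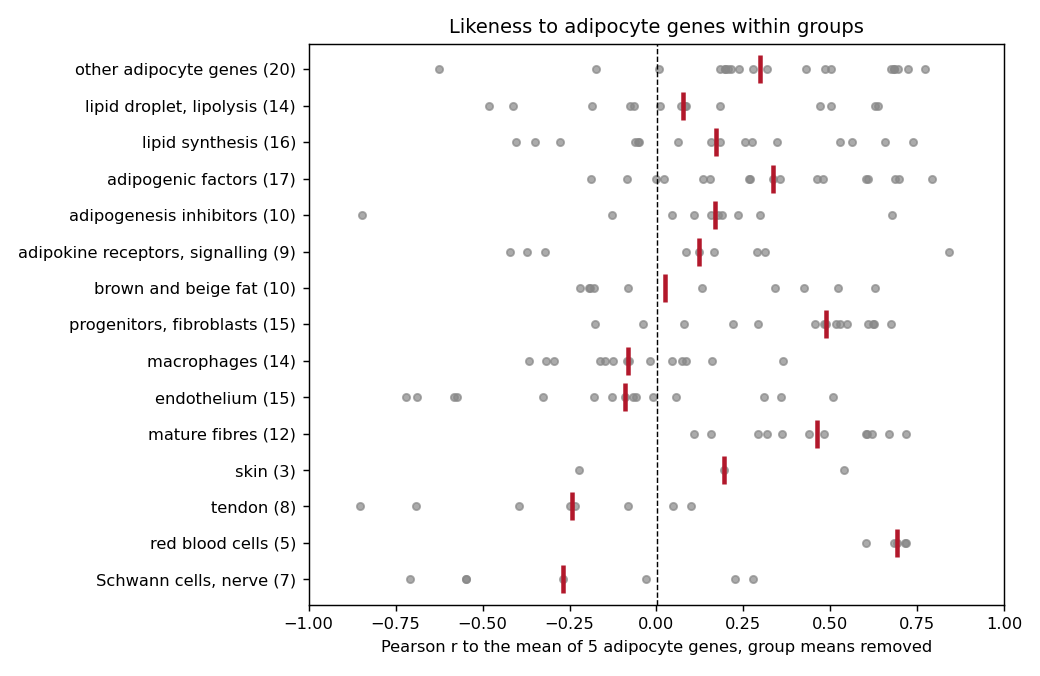
Pearson correlation (x axis) of single genes with the mean of Adipoq, Retn, Cfd, Plin1 and Cidec over 12 libraries after removal of group means, by gene list (rows, number of kept genes in brackets); grey points are genes, red bars list medians and the dashed line the median of all 14063 genes. Red blood cell genes have the highest median (0.691), and lists of progenitors (0.487) and mature fibres (0.461) lie above other adipocyte genes (0.297).

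At day 7 no difference between anti-miR-106b and scrambled muscles passed for any of the 7 tested genes. The difference (anti-miR-106b minus scrambled, log2, with its SE) was 0.21 ± 0.25 for Adipoq, -0.26 ± 0.25 for Retn, 0.01 ± 0.20 for Cfd and 0.04 ± 0.29 for Plin1. It was 0.37 ± 0.30 for Cidec, -0.01 ± 0.15 for Pparg and -0.07 ± 0.08 for Fabp4, and the adjusted p in limma was 0.711 or more for each gene. Among all genes 9 of 14063 (0.064%) passed, so few calls were made anywhere in this comparison. The 7 genes had no unadjusted p below 0.05, and limma with voom weights on the reads recovered from the table also called 0. None of the 7 had groups that did not overlap, against 10.9% of all genes. The intervals were widest for Cidec, from -0.28 to 1.02, and narrowest for Fabp4, from -0.24 to 0.10.

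At day 3 Retn and Plin1 were lower with anti-miR-106b, and Adipoq, Cfd and Cidec had negative differences that did not pass. The difference was -0.79 ± 0.25 log2 for Retn (0.577-fold, limma adjusted p = 0.0265) and -0.78 ± 0.29 log2 for Plin1 (0.583-fold, limma adjusted p = 0.0492), with n = 3 in each group. Retn was lower in all 3 anti-miR-106b libraries than in any scrambled one. It was -0.48 ± 0.25 for Adipoq (limma adjusted p = 0.139), -0.36 ± 0.20 for Cfd (0.185) and -0.63 ± 0.30 for Cidec (0.121). Pparg at -0.09 ± 0.15 and Fabp4 at 0.08 ± 0.08 were close to 0. Of all genes 19.4% were lower and 16.3% higher, so 2 of 7 lower is near the background share. Only Retn had groups that did not overlap, against 60.5% of all genes.

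The day 3 calls depended on which libraries were included and on the scaling and filter. Without scrambled day 3 replicate 2, the library highest in the summed fat genes, the difference was -0.49 log2 for Retn (limma adjusted p = 0.14) and -0.52 log2 for Plin1 (0.214), and neither passed. Neither passed without anti-miR-106b day 3 replicate 1, the library lowest in them, or without scrambled day 3 replicate 3 (limma adjusted p = 0.0985 and 0.0583 for Retn, 0.205 and 0.117 for Plin1). Leaving out the library highest or lowest in these genes makes the difference smaller by construction and leaves fewer libraries. The lost calls therefore do not show that 1 library carried the difference. Over 22 alternatives the adjusted p lay between 0.000706 and 0.14 for Retn, which lost its call in 5, and between 0.000703 and 0.214 for Plin1, which lost it in 12, with the sign kept in all. With total reads as library size neither passed (limma adjusted p = 0.0592 for Retn and 0.109 for Plin1). With the filter at 0.5 CPM Plin1 did not pass (0.0509). Mature fibre genes moved beside them: 11 of 12 were lower with anti-miR-106b at day 3, against 19.4% of all genes. The median of the fibre genes was -0.68 log2, and their sum was 70562 to 77355 CPM, against 107054 to 127730 CPM with the scrambled inhibitor. The part of fibre RNA in the difference of the fat genes was not tested.

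**Figure D4:**
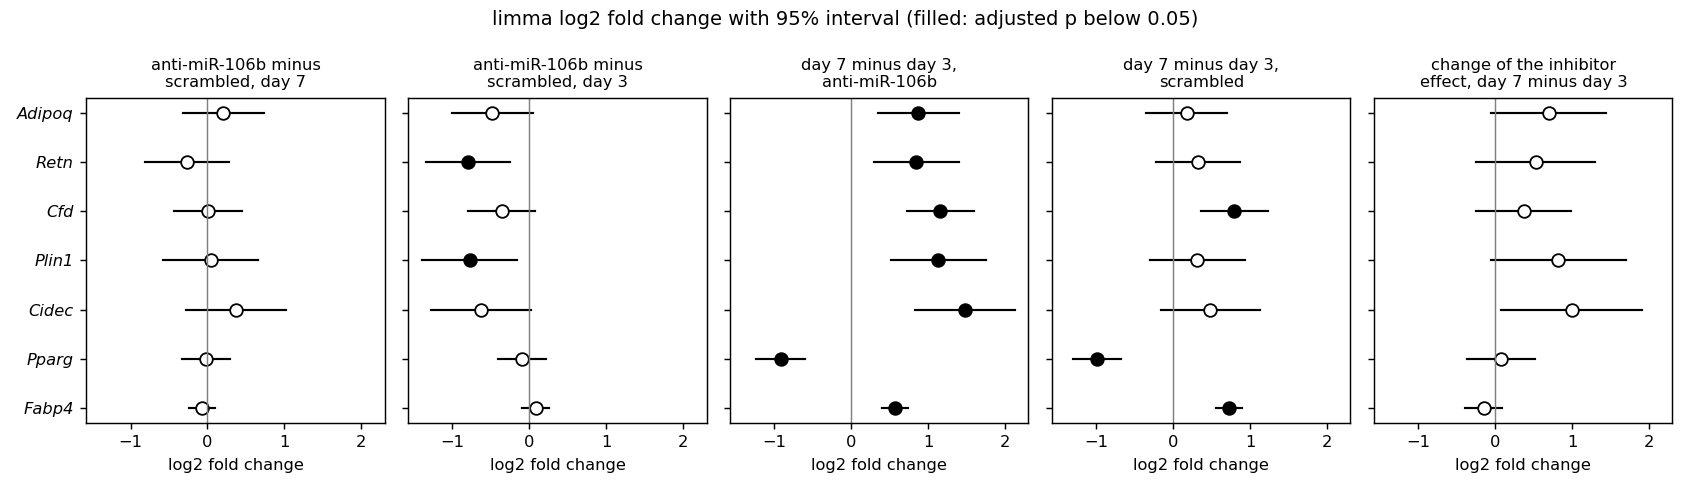
Log2 fold change from limma (x axis) with its 95% interval for the 7 tested genes (rows) in 5 comparisons (panels); filled points passed at an adjusted p below 0.05. All 7 are filled for day 7 against day 3 with anti-miR-106b, 3 with the scrambled inhibitor, 2 for the inhibitor at day 3 and 0 in the other panels.

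At day 7 the anti-miR-106b muscles held more fat-cell transcripts than at day 3, relative to the other RNA as the authors scaled it; with total reads as library size 3 of the 7 genes passed and Fabp4 changed sign. The secreted and droplet genes were all higher at day 7: Adipoq by 0.87 ± 0.25 log2 (1.83-fold), Retn by 0.85 ± 0.25, Cfd by 1.16 ± 0.20 (2.23-fold), Plin1 by 1.13 ± 0.29 and Cidec by 1.48 ± 0.30 (2.79-fold), with limma adjusted p from 0.000123 to 0.00746. Fabp4 was higher by 0.57 ± 0.08 (1.48-fold, adjusted p = 1.39e-05) and Pparg lower at -0.92 ± 0.15 (0.528-fold, adjusted p = 4.63e-05). All 7 had groups that did not overlap, as had 81.1% of all genes. Since 37.9% of all genes were higher and 40.8% lower, 6 higher of 7 is above the share of genes in general, but the genes are not independent of each other. When the total reads alone set the library size, the median of all genes in this comparison was -0.65 log2, Cfd and Cidec remained higher and Pparg lower, Adipoq, Retn and Plin1 no longer passed (0.25, 0.22 and 0.51 log2), and Fabp4 was at -0.06 log2. Mature fibre genes were higher as well, 11 of 12 with a median of 1.61 log2 (0.99 log2 with total reads), and the authors' scaling factors differed between the days (0.828 ± 0.022 at day 7 and 1.28 ± 0.03 at day 3, SD, n = 3), so that the part of either in the gain was not tested.

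In scrambled muscles the same comparison passed for fewer of the genes. Cfd was higher by 0.79 ± 0.20 log2 (1.73-fold, limma adjusted p = 0.00348), Fabp4 by 0.72 ± 0.08 (1.65-fold, adjusted p = 3e-06), and Pparg was lower at -0.996 ± 0.145 (0.501-fold, adjusted p = 3.89e-05). These 3 had groups that did not overlap, against 72.4% of all genes. Adipoq at 0.18 ± 0.25, Retn at 0.32 ± 0.25, Plin1 at 0.31 ± 0.29 and Cidec at 0.48 ± 0.30 did not pass (adjusted p from 0.17 to 0.538). Of all genes 32.9% were higher and 35.3% lower. With total reads as the library size, the median of all genes was -0.41 log2, Cfd no longer passed at 0.38 log2, and Adipoq, Retn and Plin1 had values below 0 (-0.23, -0.09 and -0.09 log2).

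The difference between both courses was tested as the change of the inhibitor effect between the days, which was positive for 6 of 7 genes but passed for none in limma. It was 0.996 ± 0.427 log2 for Cidec (adjusted p = 0.11), 0.82 ± 0.41 for Plin1 (0.163), 0.69 ± 0.35 for Adipoq (0.166), 0.53 ± 0.36 for Retn (0.312) and 0.37 ± 0.29 for Cfd (0.381). Pparg at 0.07 ± 0.21 and Fabp4 at -0.15 ± 0.11 completed the set (with total reads Fabp4 was at -0.37, limma adjusted p = 0.0151). Cidec alone had an unadjusted p below 0.05 (0.0356), and voom weights called 0. Of all genes 13.2% were higher and 9.07% lower. The larger gain of the fat genes with anti-miR-106b is therefore not shown to differ from that with the scrambled inhibitor.

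Pparg and Fabp4 ran opposite to each other over the groups, with a correlation of -0.917 over the 12 libraries and of 0.09 after removal of group means. Markers of macrophages and endothelium moved with them. All 14 macrophage genes were lower at day 7 than at day 3 with the scrambled inhibitor and 13 of 14 with anti-miR-106b, with medians of -2.54 and -2.86 log2. Of all genes 35.3% and 40.8% were lower. The macrophage sum was 224 to 377 CPM in anti-miR-106b and 234 to 266 CPM in scrambled libraries of day 7, against 2101 to 2324 CPM and 1517 to 1576 CPM in those of day 3. Csf1r, the receptor that macrophages need for survival, was at -2.88 ± 0.12 log2 with anti-miR-106b and at -2.42 ± 0.12 log2 with scrambled (limma adjusted p = 2.65e-10 and 6.05e-09). The correlation of Pparg with the mean of the macrophage genes was 0.96 over 12 libraries and 0.764 within groups. Large values over 12 libraries were not particular to macrophages. Pparg had -0.888 with mature fibre genes, -0.882 with endothelial genes, -0.774 with other adipocyte genes and 0.652 with genes of progenitors and fibroblasts. Within groups these were -0.369, -0.212, 0.137 and 0.334. For the inhibitor at day 3 Pparg was at -0.09 ± 0.15 log2. Of the 14 macrophage genes 5 were higher and none lower in that comparison (16.3% and 19.4% of all genes).

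Endothelial genes were mostly higher at day 7, like Fabp4, although with anti-miR-106b both turned negative with total reads as library size (median of the endothelial genes -0.36 log2, Fabp4 -0.06 log2). With the scrambled inhibitor 13 of 15 were higher at day 7 and none lower (median 0.72 log2), against 32.9% and 35.3% of all genes. With anti-miR-106b 9 were higher and 3 lower (median 0.27 log2), against 37.9% and 40.8% of all genes. The endothelial sum was 357 to 379.7 CPM in anti-miR-106b and 448 to 482 CPM in scrambled libraries of day 7, against 317 to 346 CPM and 295 to 308 CPM in those of day 3. The correlation of Fabp4 with the mean of the endothelial genes was 0.917 over 12 libraries, but 0.09 within groups, and with macrophage genes it was -0.943. High values over 12 libraries were not particular to the endothelium. With mature fibre genes Fabp4 had 0.891 over 12 libraries and 0.363 within groups, and with other adipocyte genes 0.827 and 0.518. With genes of progenitors and fibroblasts it had -0.482 and 0.533. Correlations over the 12 libraries mostly describe the 4 groups, which are few. The change of the inhibitor effect passed for 8 of the 15 endothelial genes, all lower (9.07% of all genes were lower), where Fabp4 did not pass. With total reads as library size Fabp4 passed too, at -0.37 log2 (limma adjusted p = 0.0151). On that scaling 9 of the 15 endothelial genes were lower, and 3477 of all 14063 genes. Which cells held the Fabp4 and Pparg transcripts was not tested.

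**Figure D5:**
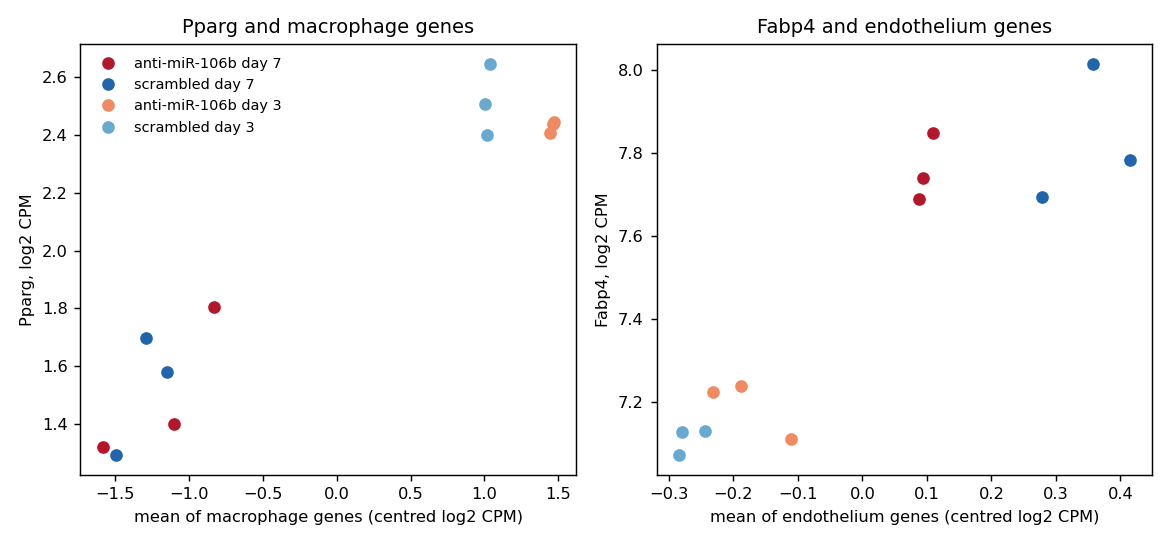
Left, log2 CPM of Pparg against the mean of 14 macrophage genes; right, log2 CPM of Fabp4 against the mean of 15 endothelial genes (x axes centred on the mean of all libraries); each point is 1 of 12 libraries, coloured by group. The points form a day 7 and a day 3 cluster in both plots, with correlations of 0.96 and 0.917 over all libraries and 0.764 and 0.09 within groups.

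Wider lists of the adipocyte programme held genes that passed in both directions. Their counts stand beside the shares of all tested genes, which at day 7 against day 3 were 37.9% higher and 40.8% lower with anti-miR-106b, and 32.9% higher and 35.3% lower with the scrambled inhibitor. For the inhibitor at day 3 they were 16.3% higher and 19.4% lower, and for the change of its effect 13.2% and 9.07%. With total reads as library size, 5159 of the 14063 genes were higher and 1391 lower for the inhibitor at day 3. Of 30 other symbols of genes high in adipocytes, 20 were kept. Of these, 11 were higher and 5 lower at day 7 with anti-miR-106b (median 0.54 log2), and 8 higher and 4 lower with the scrambled inhibitor (median 0.42 log2), where the median of all genes was -0.02 and -0.003. These are 55% higher and 25% lower with anti-miR-106b, and 40% and 20% with the scrambled inhibitor. With total reads as library size the medians of the list were -0.08 and 0.01 log2, so its direction rested on the scaling. At day 3, 3 were higher and 7 lower with anti-miR-106b (15% and 35%, median -0.32), at day 7 none passed, and the change of the inhibitor effect passed for 5 higher and 1 lower. With total reads 5 were higher and 6 lower for the inhibitor at day 3 (median -0.13). The leading genes at day 7 with anti-miR-106b, Plin4, Gpd1, Slc2a4 and Ghr, are also expressed in muscle fibres. With the scrambled inhibitor Angptl4 was among the leading genes and was lower at day 7, at -2.05 ± 0.22 log2 (limma adjusted p = 2.97e-06). Plin4, a droplet coat protein, was at -1.01 ± 0.11 log2 with anti-miR-106b at day 3 (limma adjusted p = 5.05e-05), and higher at day 7 by 2.31 ± 0.11 log2 with anti-miR-106b and by 1.16 ± 0.11 log2 with the scrambled inhibitor. Ghr, the growth hormone receptor, was at -0.72 ± 0.08 log2 and Gpd1, glycerol-3-phosphate dehydrogenase, at -0.97 ± 0.11 log2 in the day 3 comparison (adjusted p = 6.94e-05 and 7.69e-05).

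Markers closer to fat alone stayed low. Adig, a small adipocyte membrane protein, was at 1.03 to 1.63 CPM in anti-miR-106b and 0.858 to 1.66 CPM in scrambled libraries of day 7, against 0.211 to 0.494 CPM and 0.574 to 0.805 CPM in those of day 3. Its day 3 groups did not overlap, as was the case for 60.5% of all genes. Adrb3, the beta-3 adrenergic receptor of adipocytes, had at most 12 reads in any library, and Acvr1c at most 24. Aoc3, an amine oxidase of adipocytes and smooth muscle, went the other way, with 7.08 to 8.58 CPM and 6.93 to 10.3 CPM at day 7 against 15.01 to 18.0 CPM and 10.4 to 11.3 CPM at day 3, anti-miR-106b before scrambled.

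Among 14 kept genes of the droplet coat and lipolysis, 10 were higher and 2 lower at day 7 with either inhibitor (medians 0.85 log2 with anti-miR-106b and 0.59 log2 with scrambled, and 0.23 and 0.18 log2 with total reads). The higher share was 71.4% in both. Fitm2, which helps droplets bud from the endoplasmic reticulum, was higher by 1.58 ± 0.10 log2 with anti-miR-106b and by 0.85 ± 0.10 log2 with scrambled. Plin2, the droplet coat of cells other than adipocytes, was lower, at -1.30 ± 0.10 and -1.09 ± 0.10 log2. At day 3, 3 of the 14 were higher and 5 lower with anti-miR-106b (median -0.21 log2), among them Fitm1 at -0.70 ± 0.11 log2 and Fitm2 at -0.52 ± 0.10 log2. With total reads 5 were higher and 4 lower at day 3 (median -0.02 log2). The change of the inhibitor effect passed for 5 higher and 2 lower.

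Of 16 kept genes of fatty acid and triglyceride synthesis, 8 were higher and 6 lower at day 7 with anti-miR-106b, and 6 higher and 4 lower with scrambled, with medians of 0.35 and 0.28 log2 that became -0.27 and -0.13 log2 with total reads. The 37.5% lower with anti-miR-106b and the 37.5% higher with scrambled are near the shares of all genes. Lpin1, a phosphatidate phosphatase, was higher by 1.79 ± 0.16 and 0.97 ± 0.16 log2, and Acly, which makes cytosolic acetyl-CoA, was lower, at -1.12 ± 0.09 and -0.82 ± 0.09 log2. At day 3, 2 were higher and 6 lower with anti-miR-106b, among them Gpam, the first enzyme of glycerolipid synthesis, at -0.77 ± 0.14 log2, and Scd1, a fatty acid desaturase, at -0.58 ± 0.14 log2. With total reads 5 were higher and 4 lower at day 3. The change of the inhibitor effect passed for 4 higher and 3 lower.

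All 17 transcription factors of adipogenesis were kept. At day 7, 7 were higher and 5 lower with anti-miR-106b, and 6 higher and 3 lower with scrambled, and at day 3 the inhibitor comparison passed for 2 higher and 3 lower (4 higher and 2 lower with total reads). The higher shares at day 7, 41.2% and 35.3%, and the 17.6% lower at day 3 are near those of all genes. The medians at day 7 were -0.15 and 0.11 log2, and with total reads -0.77 and -0.30 log2. Cebpa, the factor that sustains Pparg in fat cells, was lower at day 7 as Pparg was, at -2.49 ± 0.18 and -2.07 ± 0.18 log2. It was at 7.80 to 11.3 CPM and 6.36 to 11.8 CPM at day 7, against 51.3 to 57.0 CPM and 36.7 to 39.6 CPM at day 3 (anti-miR-106b before scrambled), and it is also a factor of myeloid cells. Klf15 and Mlxipl, which are active in muscle too, were higher at day 7, Klf15 by 1.56 ± 0.12 and 0.95 ± 0.12 log2 and Mlxipl by 1.83 ± 0.10 and 1.02 ± 0.10 log2. At day 3 Mlxipl was at -0.78 ± 0.10 log2, Klf15 at -0.56 ± 0.12 log2 and Nr1h3, the liver X receptor alpha, at 0.41 ± 0.08 log2 with anti-miR-106b. The change of the inhibitor effect passed for 2 higher and 1 lower.

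Of 10 kept inhibitors of adipogenesis, 3 were higher and 3 lower at day 7 with anti-miR-106b, and 4 higher and 1 lower with scrambled (medians 0.10 and 0.18 log2, and -0.53 and -0.23 log2 with total reads). Sfrp2, a secreted modulator of Wnt signalling, was lower at -3.98 ± 0.38 and -2.38 ± 0.38 log2, and at day 3 it was higher with anti-miR-106b by 1.69 ± 0.38 log2 (limma adjusted p = 0.00427), while Timp3 was at -0.50 ± 0.16 log2. Of 9 genes that receive adiponectin, leptin and insulin signals, 6 were higher and 2 lower at day 7 with either inhibitor (medians 0.69 and 0.40 log2, and 0.07 and -0.01 log2 with total reads). Adipor2, an adiponectin receptor, was higher by 0.98 ± 0.08 and 0.61 ± 0.08 log2, and Cap1, reported as a resistin receptor in humans, was lower at -2.00 ± 0.11 and -1.53 ± 0.11 log2. At day 3, 1 was higher and 5 lower with anti-miR-106b, Cap1 at 0.50 ± 0.11 log2 and Irs1, the insulin receptor substrate, at -0.82 ± 0.12 log2. With total reads 2 were higher and 1 lower at day 3.

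Of 10 kept genes of brown and beige fat, 7 were higher and 2 lower at day 7 with either inhibitor (medians 1.27 and 0.82 log2, and 0.65 and 0.42 log2 with total reads), and at day 3 none was higher and 4 lower with anti-miR-106b. The day 3 counts were the same with total reads. The leading ones at day 7 with anti-miR-106b were Cox7a1, Ppargc1a, Tbx1 and Cox8b. Tbx1 was higher by 1.51 ± 0.11 log2 with anti-miR-106b and by 0.95 ± 0.11 log2 with scrambled. Tmem26, among the leading ones with scrambled, was lower at -1.49 ± 0.18 log2. Cox7a1, Cox8b and Ppargc1a are mitochondrial and regulatory genes that muscle fibres share, and Ucp1 was nearly absent. Progenitors and fibroblasts, from which muscle adipocytes can arise, were represented by 15 kept genes. Of these 15 genes, 4 were higher and 6 lower at day 7 with anti-miR-106b and 3 higher and 5 lower with scrambled, with medians of 0.02 and 0.04 log2, which became -0.61 and -0.37 log2 with total reads. The lower shares, 40.0% and 33.3%, are near those of all genes. Pdgfra, the receptor that marks these cells, was at 32.8 to 35.6 CPM and 32.1 to 39.5 CPM at day 7, against 40.7 to 45.8 CPM and 43.6 to 51.6 CPM at day 3 (anti-miR-106b before scrambled). At day 3, 1 of the 15 was higher and 2 lower with anti-miR-106b, Ly6a at 0.28 ± 0.08 log2 and Cd55 at -0.63 ± 0.10 log2 being the leading ones in each direction. With total reads 3 were higher and 1 lower at day 3.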

How the data were processed

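The deposited table holds log2 CPM per gene symbol for 12 libraries. Tools named in the submitters' processing notes are STAR and featureCounts without versions, Trim Galore 0.4.3.1, FastQC 0.72, limma 3.34.9 and edgeR 3.20.9, with the build mm10; order, settings and use of strand are not given in the sources used here. The values contain a prior of 0.25 reads on average, and the authors had scaled library sizes by factors averaging 0.828 ± 0.022 (anti-miR-106b day 7), 0.845 ± 0.037 (scrambled day 7), 1.28 ± 0.03 (anti-miR-106b day 3) and 1.12 ± 0.03 (scrambled day 3; SD, n = 3). All values gave whole reads within 0.001.

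The log2 values were fitted with limma 3.58.1 (R 4.3.3), a mean per group over 12 libraries and a trended prior variance. The 14063 genes with 1 CPM or more in at least 3 libraries were tested, two-sided, with Benjamini-Hochberg adjustment within each comparison, and passed below 0.05. An exact permutation test of 3 against 3 cannot go below 0.1. The test was checked on simulated data. Each group is 3 animals per the series' design text, which names day 5 once where every label has 3 or 7. Exon lengths and UTRs are from GENCODE M21 (GRCm38, the assembly of mm10). Named were all 8 genes, up to 4 genes per list with the smallest p, the 10 genes most alike and markers that check the tissue. Genes and lists were chosen with earlier results of these data known.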

Additional observations from a re-analysis of the deposited data

How the results depend on the processing

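Alternatives were other filters (0.5 CPM, none), 1 CPM added, total-count scaling, quantile normalization, only the groups compared, library weights, a replicate block, leaving out each library and, chosen after seeing the data, voom weights and leaving out both scrambled libraries highest in fat genes. The planned edgeR test on recovered reads was not run, since the deposited values are log2 CPM. Among values of single genes under alternatives, 695 kept direction and side of the threshold, 21 lost and 17 gained a call and 30 changed sign. The cause was not tested. Total-count scaling put the median of all genes at 0.20 log2 for the inhibitor at day 3 and at -0.22 log2 for its change. For day 7 against day 3 it put that median at -0.65 log2 with anti-miR-106b and at -0.41 log2 with scrambled.

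The day 3 count (2) was 1 at 0.5 CPM, 1 without filter, 1 with total-count scaling (Fabp4, higher), 5 with library weights, 0 without both scrambled libraries and 0 to 3 on leaving out single libraries. The anti-miR-106b day 7 count (7) was 3 with total-count scaling, and the scrambled one (3) was 6 with quantile normalization and 5 with library weights. The count for the change of effect (0) was 1 with total-count scaling (Fabp4, lower) and 0 to 1 without single libraries. The summed fat genes of anti-miR-106b day 3 averaged 29.7 CPM, and 38.0 with total-count scaling. Over all tested genes, libraries with the same replicate number had residual correlations of -0.185 to 0.144. The mean of Adipoq, Retn, Cfd, Plin1 and Cidec deviated in replicates 1 to 3 by -0.39, 0.39 and -0.0004 log2 (anti-miR-106b day 3). The deviations were -0.50, 0.44 and 0.06 (scrambled day 3), -0.15, 0.04 and 0.12 (anti-miR-106b day 7) and -0.15, 0.36 and -0.21 (scrambled day 7). Labels do not say that the numbers pair animals. With a replicate block the change of effect gave 1 call (Plin1, 0.82 log2) and day 3 gave 3.

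Signs changed with total-count scaling for the inhibitor at day 7 in Cfd (-0.020), at day 3 in Pparg (0.10), for its change in Pparg (-0.14), for anti-miR-106b day 7 in Fabp4 (-0.058), and for scrambled day 7 in Adipoq (-0.23), Retn (-0.088) and Plin1 (-0.094). For the inhibitor at day 7 they changed with quantile normalization in Cfd (-0.018) and Pparg (0.046), with library weights in Adipoq (-0.020), Cfd (-0.13) and Plin1 (-0.25), and without both scrambled libraries in Pparg (0.072) and Fabp4 (0.020). On leaving out single libraries the inhibitor effect at day 7 ranged from -0.14 to 0.17 in Cfd, -0.15 to 0.28 in Plin1, -0.16 to 0.079 in Pparg and -0.14 to 0.020 in Fabp4. In the same way the change of effect ranged from -0.074 to 0.17 in Pparg, and scrambled day 7 from -0.11 to 0.42 in Adipoq.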
